A study of Mus musculus with 8 samples.

Results

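The 9 genes described here encode granule proteins and maturation markers of neutrophils. They are the S100 proteins S100a8 and S100a9, the specific granule proteins Ltf, Lcn2, Camp and Ngp, the azurophil granule protease Elane, the resistin-like protein Retnlg and the G-CSF receptor Csf3r. They were taken by symbol from a table of 37979 mouse genes, each symbol matched a single row, and all 9 were above 0 in every library. Bulk RNAseq was performed on cells freshly sorted from the hindlimb muscles of Ai14+/-;SM22α-Cre+ mice that had been perfused with PBS. The mice used, for sorting and for other work, were 18 animals of both sexes aged 3 to 4 months. In these mice the SM22α promoter drives Cre, and any cell that has ever made enough Cre keeps the red protein tdTomato. Red blood cells were lysed, and sorted cells were low for DAPI, negative in the channel that held the CD31 (endothelial) and CD45 (leukocyte) antibodies, and positive for PDGFRβ. The tdTomato-negative cells were labeled pericytes and the tdTomato-positive cells smooth muscle cells (SMCs). There were 4 libraries of each, numbered 1 to 4, with about 60000 cells from several combined sorts in a library, so a library need not be a single animal. The labels give all 8 libraries a single batch. The authors propose that individual differences and batch effects from combined sorts may underlie variation among replicates. The tdTomato label is one of lineage. The pericyte gate thus takes any PDGFRβ-positive cell that lacks this label and meets the DAPI, CD31 and CD45 limits.

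Neutrophils mature in the bone marrow and fill their granules in sequence. Azurophil granules, with elastase, myeloperoxidase, proteinase 3 and cathepsin G, form at the promyelocyte stage. Specific and gelatinase granules, with lactoferrin, lipocalin-2 and cathelicidin, form later, and the transcripts for most granule proteins are largely shut off by the time a neutrophil leaves the marrow. S100A8 and S100A9 fill the cytosol of later stages, and CSF3R is the receptor through which G-CSF drives the lineage. Lcn2, S100a8 and S100a9 can also be induced in other cell types during inflammation.

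Values are FPKM, fragments scaled to transcript length and to mapped reads, and can be compared between genes, less surely for very short transcripts. Low FPKM values fell on whole multiples of a single fragment, which gave an estimated 21700000 to 26300000 fragments in pericyte libraries and 25000000 to 26500000 in SMC libraries. At that depth the lowest Elane value rested on about 32.0 fragments (a counting error of 17.7%). The fewest fragments for Csf3r were about 98.9, in SMC replicate 1 (10.1%). Pericyte replicate 2 stood apart in its summed FPKM, 1190435 against 656405 to 782014 in the other 7 libraries. The labels were checked against defining markers. Ptprc, the gene of CD45, measured 175 ± 65.6 FPKM in pericyte libraries and 8.16 ± 3.18 FPKM in SMC libraries (mean ± SD, n = 4 in each; log2 difference 4.24, q = 4.0e-04 by limma). Pdgfrb was not higher in that group, at 9.70 ± 6.59 FPKM against 47.4 ± 37.2 FPKM in SMC libraries (q = 0.0973 by limma, and from 0.00104 to 0.215 over the alternatives, 3 of which passed), and of 7 pericyte markers 0 were higher in pericytes and 1, Rgs5, was higher in SMCs by limma (0 and 4 at an unadjusted p under 0.05). Rgs5 lost that call with all listed genes tested and without pericyte replicate 1 or SMC replicate 3 or 4 (q up to 0.0656). With a term for the replicate number (the replicate block), Pdgfrb, Kcnj8, Abcc9, Notch3 and Anpep also passed in SMCs (q from 0.00142 to 0.0436 by limma). The libraries labeled pericytes thus carried the CD45 transcript above the SMC libraries and did not carry pericyte markers above them. The names pericytes and SMCs denote the 2 sort gates.

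On NCBI Build 37, S100a8 (chr3:90472993-90473956, plus strand) and S100a9 (chr3:90496554-90499643, minus strand) lie close together on chromosome 3. Camp (chr9:109749889-109751970, minus strand), Ngp (chr9:110322254-110325514, plus strand) and Ltf (chr9:110921796-110945270, plus strand) lie on chromosome 9. Lcn2 is at chr2:32240153-32243317 on the minus strand. Retnlg (chr16:48872721-48874611), Csf3r (chr4:125701794-125722219) and Elane (chr10:79349057-79350961) are on the plus strand. All 9 are protein-coding, with 3 exons in S100a8 and S100a9 and up to 17 exons in Ltf, and no other annotated gene overlaps any of them, so reads of a neighbour on the other strand are not mixed into their values.

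Granule genes share the transcription factors C/EBPε, C/EBPα and PU.1, and CSF3R signals through STAT3, so the 250 bases before each start site were searched for the letters these factors bind. The sequences are from RefSeq on GRCm38.p6, a different build from the expression table, and a promoter was found for all 9 genes. The C/EBP letters TTNCNNAA, or TTNNGNAA for the other strand, occurred in 6 of the 9 promoters (S100a8, S100a9, Ltf, Lcn2, Ngp and Retnlg), beside 36.8% of 32851 mouse promoters of that length. Those 6 are also 6 of the 7 genes whose levels moved together across libraries, and the exception is Camp. The 7 were grouped by their values in these libraries, and a link between the letters and the levels was not tested. The promoters of Elane, Csf3r and Camp did not hold these letters, and neither did those of Mpo, Prtn3 and Ctsg, the azurophil genes described beside Elane. The PU.1 letters GAGGAA, or TTCCTC, occurred in 5 of 9 promoters, beside 23.3% of all, and the STAT letters TTCNNNGAA, which read the same on both strands, in 0 of 9, beside 7.02% of all. The C/EBP spellings can overlap each other, in which case a start position was counted once, and GAGGAA can overlap either of the other motifs. A match is a run of letters and not a measured binding site, and a promoter without a match lacks only these letters in this window. The promoters of 3 genes that contrast in level and in matches are printed 5′ to 3′ on the gene's strand, with C/EBP letters in capitals: Ngp with 3 matches (chr9:110419558-110419807), S100a9 with 2 (chr3:90695722-90695971) and Elane with none (chr10:79886062-79886311).
Ngp: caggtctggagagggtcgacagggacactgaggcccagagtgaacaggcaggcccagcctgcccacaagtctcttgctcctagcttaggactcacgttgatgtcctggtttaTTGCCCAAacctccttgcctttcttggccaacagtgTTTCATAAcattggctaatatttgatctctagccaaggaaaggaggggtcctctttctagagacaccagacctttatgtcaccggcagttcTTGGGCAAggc
S100a9: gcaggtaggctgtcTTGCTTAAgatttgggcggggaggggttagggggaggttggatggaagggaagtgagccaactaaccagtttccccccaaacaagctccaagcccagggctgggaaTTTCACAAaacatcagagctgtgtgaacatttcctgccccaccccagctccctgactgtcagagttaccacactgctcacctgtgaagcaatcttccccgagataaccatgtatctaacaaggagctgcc
Elane: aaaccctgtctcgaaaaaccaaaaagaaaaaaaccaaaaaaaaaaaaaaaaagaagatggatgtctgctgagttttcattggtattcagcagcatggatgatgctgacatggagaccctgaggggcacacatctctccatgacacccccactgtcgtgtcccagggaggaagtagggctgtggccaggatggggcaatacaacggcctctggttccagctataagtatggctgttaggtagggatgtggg

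Of the 9 genes, Elane alone was higher in pericytes, by 4.82 on the log2(FPKM + 1) scale, and 0 were higher in SMCs. Calls are a q value under 0.05 by limma with Benjamini-Hochberg adjustment over 27414 genes. The count of 1 of 9 higher in pericytes stands beside 10.6% of all genes tested, and the count of 0 beside 11.2%. At an unadjusted p under 0.05 the counts were also 1 and 0. Elane was also the 1 gene of 9 past a log2 fold change of 2 (5.89% of all genes), and the 1 gene of 9 whose groups did not overlap (24.6% of all genes). The median log2 difference of the 9 genes, pericytes minus SMCs, was 0.32, against 0.02 over all genes tested. In bulk RNA, fewer cells that carry a transcript and less of it in each cell cannot be told apart. Most of these genes varied widely within each group, as their values by library show.

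**Figure D1:**
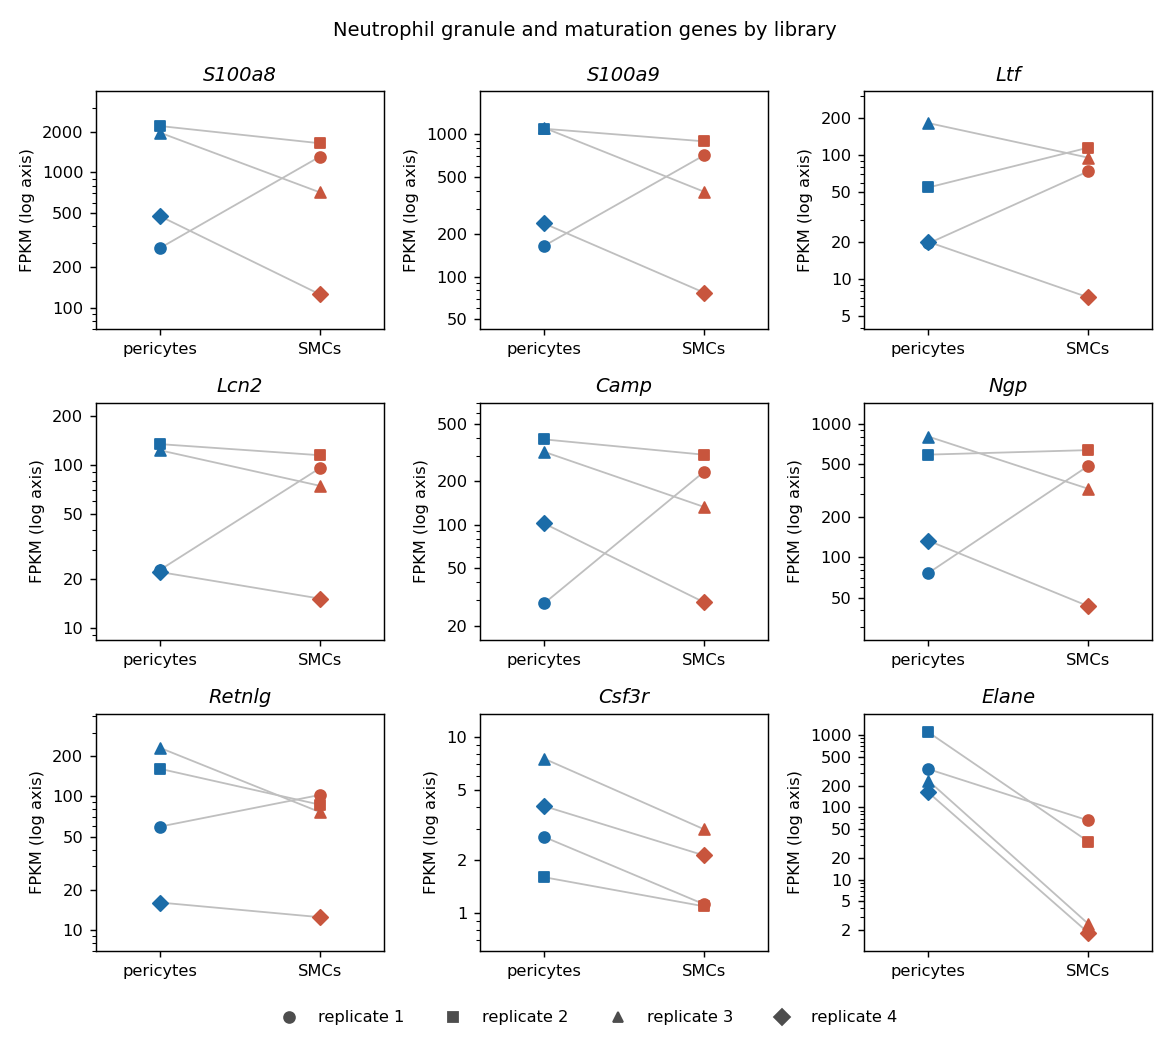
FPKM (log axis) of each gene in 4 pericyte (blue) and 4 SMC (red) libraries, with the marker shape giving the replicate number and a grey line joining libraries of the same number. The groups are separate for Elane, from 161 to 1098 against 1.84 to 65.9 FPKM, and overlap for the other 8 genes.

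S100a8 and S100a9 form the heterodimer calprotectin, a calcium-binding alarmin, and had the highest median FPKM of the 9 genes over libraries. Their longest transcripts are 392 and 519 bases, and the depth estimate takes 253 to 269 bases off a transcript. Their FPKM thus rest on a short remaining length. By estimated fragments Ngp was above S100a8 in every library, at 1089 to 19505 against 428 to 6460. S100a8 measured 277, 2202, 1968 and 476 FPKM in pericyte replicates 1 to 4, and 1312, 1642, 712 and 126 FPKM in SMC replicates 1 to 4. S100a9 measured 164, 1091, 1108 and 236 FPKM in pericytes and 711, 890, 394 and 77.0 FPKM in SMCs, in the same order. Both genes were high in pericyte replicates 2 and 3 and SMC replicates 1 and 2, low in pericyte replicates 1 and 4 and lowest in SMC replicate 4, so the groups overlapped throughout. The log2 difference, pericytes minus SMCs, was 0.39 for S100a8 (SE 1.02, 95% interval -2.01 to 2.79, q = 0.841 by limma). For S100a9 it was 0.32 (SE 0.98, 95% interval -1.98 to 2.62, q = 0.864 by limma). Intervals this wide leave a several-fold difference in either direction undecided. By same-numbered libraries, both genes were higher in the pericyte library in 3 of 4 pairs and higher in the SMC library for replicate 1, by 2.24 on the log2 scale for S100a8 (a pericyte minus SMC difference of -2.24).

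The 4 specific granule genes followed the same libraries. Ngp, neutrophilic granule protein, measured 76.3, 593, 810 and 134 FPKM in pericyte replicates 1 to 4 and 489, 641, 328 and 43.1 FPKM in SMC replicates 1 to 4. Camp, the cathelicidin antimicrobial peptide, measured 28.5, 392, 321 and 102 FPKM in pericytes and 234, 306, 133 and 29.0 FPKM in SMCs. Both had their lowest 3 values in pericyte replicates 1 and 4 and SMC replicate 4. Lcn2, lipocalin-2, which binds bacterial siderophores, measured 22.6, 134, 123 and 21.96 FPKM in pericytes and 95.6, 115, 74.3 and 15.1 FPKM in SMCs. Ltf, the iron-binding lactoferrin, measured 19.4, 54.8, 181 and 19.96 FPKM in pericytes and 74.0, 115, 95.3 and 7.10 FPKM in SMCs. Pericyte replicate 3 was the highest library for Ltf and Ngp, and pericyte replicate 2 for Camp and Lcn2. The log2 difference was 0.04 for Ngp (95% interval -2.53 to 2.60, q = 0.991), 0.10 for Camp (-2.34 to 2.55, q = 0.964), -0.14 for Lcn2 (-2.21 to 1.93, q = 0.937) and -0.16 for Ltf (-2.66 to 2.33, q = 0.941), all by limma. The pericyte library was the higher of the pair in 2 of 4 pairs for Ngp and Ltf and in 3 of 4 for Camp and Lcn2. The signs of these 4 small differences are not stable. Those of Camp and Ngp turned under rescaling to TPM, and each of the 4 turned when some single library was left out, with values from -1.05 for Ltf without SMC replicate 4 to 0.85 for Camp without pericyte replicate 1.

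Retnlg and Csf3r, the maturation and receptor genes, differed from each other in level and in pattern. Retnlg, a secreted resistin-like protein of myeloid cells, measured 59.4, 161, 231 and 16.1 FPKM in pericyte replicates 1 to 4 and 103, 86.5, 76.1 and 12.5 FPKM in SMC replicates 1 to 4. Its lowest 3 libraries were again pericyte replicates 1 and 4 and SMC replicate 4, and its log2 difference was 0.51 (SE 0.99, 95% interval -1.82 to 2.83, q = 0.787 by limma). Csf3r measured 2.70, 1.59, 7.51 and 4.04 FPKM in pericytes and 1.12, 1.09, 2.98 and 2.12 FPKM in SMCs, the lowest of the 9 genes in median level. Its order of libraries was another one, with replicates 3 and 4 above replicates 1 and 2 within each group. The log2 difference of Csf3r was 0.73 (SE 0.39, 95% interval -0.20 to 1.65, q = 0.271 by limma), the groups overlapped, and the pericyte library was the higher in 4 of 4 pairs. Csf3r passed in pericytes with the replicate block (q = 0.0342 by limma) and with replicates 1 and 2 against 3 and 4 as a covariate (q = 0.0452). The 2 replicates that were lowest for Csf3r in each group, 1 and 2, include the SMC libraries that were highest for S100a8.

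Elane encodes neutrophil elastase, a serine protease stored in azurophil granules. It measured 339, 1098, 235 and 161 FPKM in pericyte replicates 1 to 4, and 65.9, 33.6, 2.44 and 1.84 FPKM in SMC replicates 1 to 4. The groups did not overlap, and the pericyte library was the higher in 4 of 4 pairs. The mean ± SD was 458 ± 433 FPKM for pericytes and 25.9 ± 30.5 FPKM for SMCs (n = 4 in each), a log2 difference of 4.82 (SE 1.19, 95% interval 2.03 to 7.60, q = 0.0257 by limma). SMC replicates 1 and 2 lay far above SMC replicates 3 and 4, a 35.8-fold range within the group. The size of the difference held under all 17 alternatives, from 4.11 to 5.63, and the call did not. The q value by limma was 0.0597 with all listed genes tested. It was 0.0589 without pericyte replicate 1, 0.0528 without pericyte replicate 2, 0.0534 without pericyte replicate 3, 0.0644 without SMC replicate 3 and 0.0580 without SMC replicate 4, and it stayed under 0.05 without any of the other 3 libraries.

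**Figure D2:**
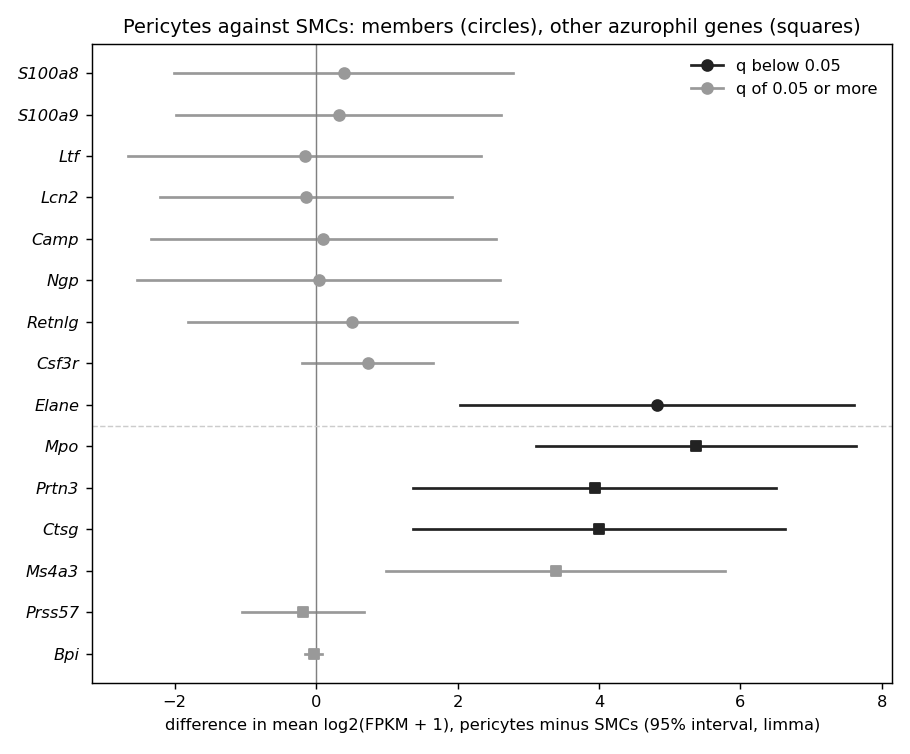
Difference in mean log2(FPKM + 1), pericytes minus SMCs, with its 95% interval from limma, for the 9 genes (circles) and the 6 further genes of the azurophil list (squares), in black where q was below 0.05. Elane lies with Mpo, Prtn3 and Ctsg at 3.94 to 5.37, Prss57 and Bpi lie at -0.19 and -0.04, and the other 8 circles have intervals that include 0.

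The other azurophil granule genes were read next to Elane. Mpo, myeloperoxidase, measured 454, 534, 415 and 262 FPKM in pericyte replicates 1 to 4 and 39.8, 22.1, 4.65 and 0.696 FPKM in SMC replicates 1 to 4 (log2 difference 5.37, SE 0.96, q = 0.00688 by limma). Prtn3, proteinase 3, measured 143, 432, 69.6 and 54.6 FPKM in pericytes and 28.8, 23.0, 2.03 and 1.05 FPKM in SMCs (3.94, SE 1.09, q = 0.0402 by limma). Ctsg, cathepsin G, measured 77.2, 203, 35.6 and 25.8 FPKM in pericytes and 14.1, 11.4, 0.212 and 0.0511 FPKM in SMCs (3.999, SE 1.12, q = 0.0418 by limma). All 3 had separate groups, as 24.6% of all genes did, and shared with Elane the order of SMC replicates, 1 and 2 above 3 and 4. Ms4a3, a membrane protein of granulocyte precursors, averaged 46.6 against 4.32 FPKM (3.39, q = 0.0545 by limma) and did not pass, but passed under 5 of the 17 alternatives, among them the intensity trend and leaving out SMC replicate 1 (q from 0.00269 to 0.129 over all of them). Prss57, a further azurophil protease, measured 9.69 ± 6.19 FPKM in pericytes and 10.2 ± 2.67 FPKM in SMCs (SD, n = 4 each, q = 0.789 by limma), and Bpi was at 0 in all pericyte libraries and at most 0.0778 FPKM in SMCs. In all, 3 of the 6 genes on this list were higher in pericytes and 0 in SMCs (4 and 0 at an unadjusted p under 0.05), beside 10.6% and 11.2% of all genes tested. The call of Mpo held under every alternative run (q from 6.1e-04 to 0.0229). Those of Prtn3 and Ctsg were lost with all listed genes tested and without pericyte replicate 1, 2, 3 or 4 or SMC replicate 3 or 4, with q up to 0.101 for both.

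Apart from Elane and Csf3r, the genes moved as a unit within the libraries. For S100a8, S100a9, Ltf, Lcn2, Camp, Ngp and Retnlg the lowest 3 libraries were pericyte replicates 1 and 4 and SMC replicate 4 in 7 of 7 genes. The highest library exceeded the lowest by 8.89-fold (Lcn2) to 25.5-fold (Ltf). Their SD within groups was 1.37 to 1.70 on the log2 scale, where the median over 7041 genes averaging 10 FPKM or more was 0.42, and 2.27% of those genes had an SD as large as the lowest of the 7. With group means subtracted, the correlation of each gene with the mean of the 9 over the 8 libraries was 0.997 for S100a9, 0.991 for S100a8, 0.992 for Ngp, 0.988 for Lcn2, 0.949 for Camp, 0.933 for Ltf and 0.909 for Retnlg. It was 0.673 for Elane and -0.12 for Csf3r. These correlations share libraries and each gene is part of the mean, so they describe the pattern and were not tested. The 9 genes together made up 0.143%, 0.481%, 0.694% and 0.150% of summed FPKM in pericyte replicates 1 to 4, and 0.418%, 0.584%, 0.260% and 0.0449% in SMC replicates 1 to 4.

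A ratio within a library is free of any factor that scales both genes alike. S100a9 was 0.495 to 0.612 of S100a8 in all 8 libraries, although S100a8 itself varied 17.5-fold. Ngp was 0.269 to 0.460 of S100a8 and Camp 0.103 to 0.231. Lcn2 (0.0461 to 0.120), Ltf (0.0249 to 0.134) and Retnlg (0.0337 to 0.214) were looser, and for these 6 genes the ratios of pericytes and SMCs overlapped. The ratio of Csf3r to S100a8 ran from 6.6e-04 to 0.0168, a 25.4-fold range, with overlapping groups.

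**Figure D3:**
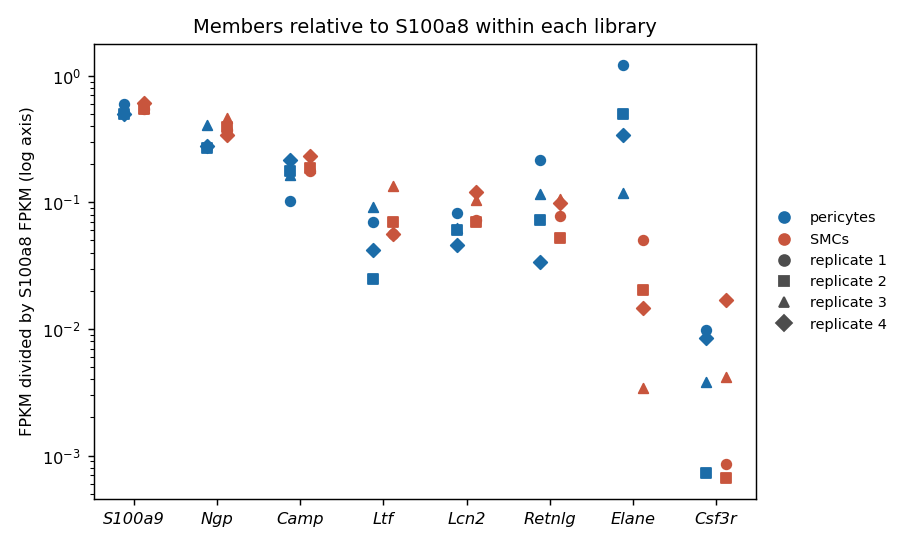
FPKM of each gene divided by S100a8 FPKM in the same library (log axis), for 4 pericyte (blue) and 4 SMC (red) libraries, with marker shape giving the replicate number. S100a9 stays between 0.495 and 0.612 in all 8 libraries, while the ratio of Elane is 0.119 to 1.22 in pericytes and 0.00343 to 0.0502 in SMCs.

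The ratio of Elane to S100a8 separated the groups. It was 1.22, 0.499, 0.119 and 0.339 in pericyte replicates 1 to 4 and 0.0502, 0.0204, 0.00343 and 0.0146 in SMC replicates 1 to 4. The difference of log2(FPKM + 1) values, Elane minus S100a8, was -1.33 ± 1.39 in pericytes and -5.76 ± 1.42 in SMCs (SD, n = 4 each), 4.43 apart. This ratio was chosen after its values were seen, so it is given as a description. Pericyte replicates 1 and 4 show the contrast most directly, with S100a8 below that of SMC replicates 1, 2 and 3 and Elane above all 4 SMC libraries. Prtn3 kept a closer ratio to Elane, 0.296 to 0.421 in pericytes and 0.437 to 0.833 in SMCs, ranges that also do not overlap, with the higher values in SMCs. The ratio of Mpo to Elane varied 5.04-fold, from 0.379 to 1.91, with overlapping groups. Relative to Ptprc, which was itself far higher in pericytes, Elane did not separate the groups, at 0.855 to 13.6 in pericytes and 0.154 to 15.2 in SMCs, with SMC replicate 1 the highest of the 8 libraries. The ratio of Csf3r to Ptprc was 0.0133 to 0.0326 in pericytes and 0.119 to 0.410 in SMCs, the higher values being those of SMCs.

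**Figure D4:**
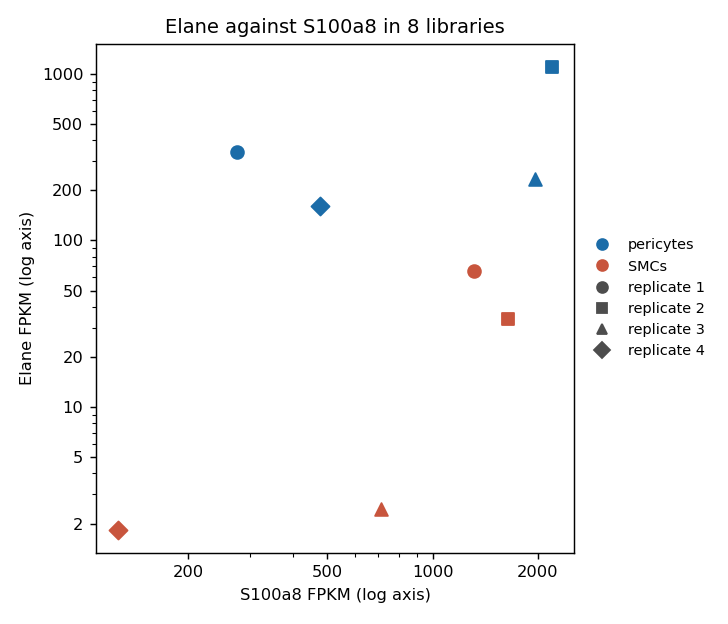
Elane FPKM against S100a8 FPKM (log axes) in 4 pericyte (blue) and 4 SMC (red) libraries, with marker shape giving the replicate number. Pericyte replicate 1 has 277 FPKM of S100a8 and 339 of Elane, while SMC replicate 2 has 1642 of S100a8 and 33.6 of Elane.

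Other neutrophil genes were counted on 4 lists that leave out the 9 genes, with 55 genes tested. Of these, 12 were higher in pericytes, 3 were higher in SMCs and 40 did not pass, with a median log2 difference of 0.45. Over all genes tested, 10.6% passed in the pericyte direction and 11.2% in the SMC direction. The count higher in SMCs was 7 without pericyte replicate 2 and 1 without SMC replicate 3, and the count higher in pericytes stayed between 9 and 13 with any library left out. The azurophil list gave 3 of the 12. Of 18 specific and gelatinase granule genes tested, 4 were higher in pericytes (Cybb, Ltb4r1, Mmp25 and Cyba) and 1 in SMCs (Slc11a1), with a median of 0.37. Cybb and Cyba encode the membrane subunits of the phagocyte NADPH oxidase, and were higher by 2.19 (45.0 against 8.77 FPKM, q = 9.4e-04 by limma) and 1.05 (790 against 371 FPKM, q = 0.0107). Cyba lost its call with the replicate block (q = 0.0511 by limma). Ltb4r1, a leukotriene B4 receptor, was 2.06 higher (q = 0.0237) and lost its call without pericyte replicate 2, 3 or 4 or SMC replicate 3 or 4 and with all listed genes tested (q up to 0.0610). Mmp25, a membrane metalloproteinase, was 1.07 higher at 1.68 against 0.250 FPKM (q = 0.00562). Slc11a1, a metal transporter of phagosomes, was 19.4 FPKM in SMCs and 6.31 in pericytes (-1.44, q = 0.0212) and lost its call without pericyte replicate 1 or 3 or SMC replicate 3 (q up to 0.0590). Other granule proteins on this list, such as Mmp8 (10.8 ± 8.49 against 7.47 ± 4.38 FPKM), Mmp9 (4.31 ± 5.23 against 4.45 ± 1.27) and Chil3 (79.9 ± 52.5 against 56.4 ± 41.7; SD, n = 4 each), did not pass. Mmp9 passed in SMCs without pericyte replicate 3 (q = 0.0379).

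Of 23 genes listed for mature neutrophils, 3 were higher in pericytes and 2 in SMCs, with a median of 0.56. Both shares lie near the 10.6% and 11.2% of all genes tested, so these counts do not set the list apart. Il1r2, a decoy receptor for interleukin-1, was 228 against 27.3 FPKM (2.84, q = 0.00291 by limma). Mxd1, a MYC antagonist, and Clec4e, the lectin Mincle, were higher by 1.81 (q = 0.0110) and 1.17 (q = 0.00933), and Mxd1 lost its call under TPM scaling (q = 0.0561). Lrg1, a secreted glycoprotein that endothelial cells also make, was 264 FPKM in SMCs and 17.4 FPKM in pericytes (-3.60, q = 0.00191). G0s2, an inhibitor of lipolysis, was 89.5 against 33.1 FPKM (-1.51, q = 0.0389) and lost its call without any single library except pericyte replicate 2 (q up to 0.0946). Surface markers differed widely in level. Cxcr2, a chemokine receptor of neutrophils, was 0.0412 to 0.689 FPKM over the 8 libraries, whereas Il1r2 was 85.6 to 375 FPKM in pericytes and 23.9 to 30.5 FPKM in SMCs. Ly6g, a surface protein of mouse neutrophils, was 0.468, 7.13, 14.3 and 2.97 FPKM in pericyte replicates 1 to 4 and 8.44, 9.21, 7.31 and 0.845 FPKM in SMC replicates 1 to 4. The lowest 2 libraries for Ly6g, pericyte replicate 1 and SMC replicate 4, are among the 3 that were lowest for S100a8.

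Of 8 transcription factors of granulocytes, 2 were higher in pericytes and 0 in SMCs (4 and 3 at an unadjusted p under 0.05), beside 10.6% and 11.2% of all genes tested, with a median of 0.03. Spi1, which encodes PU.1, was 74.0 against 17.6 FPKM (1.98, q = 0.0130 by limma). Gfi1, a repressor needed for neutrophil differentiation, was 1.17 against 0.0112 FPKM (1.05, q = 0.0103), with 3 of 4 SMC libraries at 0. Cebpe, the factor of the specific granule stage, was 1.27, 2.64, 2.72 and 0.312 FPKM in pericyte replicates 1 to 4 and 0.372, 0.651, 0.483 and 0.0387 FPKM in SMC replicates 1 to 4, and did not pass (0.88, q = 0.130 by limma). It passed under 2 of the 17 alternatives, 1 of them without pericyte replicate 4, and its q ran from 0.0170 to 0.272 over the alternatives. Other C/EBP genes leaned the other way. Cebpd, which encodes C/EBPδ, was 10.5, 143, 55.8 and 134 FPKM in pericyte replicates 1 to 4 and 713, 261, 490 and 269 FPKM in SMC replicates 1 to 4, with separate groups, and did not pass (-2.73, q = 0.0579 by limma). It passed in SMCs under 7 of the 17 alternatives, with q from 0.0126 to 0.143 over all of them. Cebpa, which encodes C/EBPα, averaged 0.328 against 0.748 FPKM, also with separate groups, and did not pass (-0.39, q = 0.0735 by limma), but passed in SMCs under quantile and TPM scaling (q from 0.0304 to 0.167 over all alternatives).

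**Figure D5:**
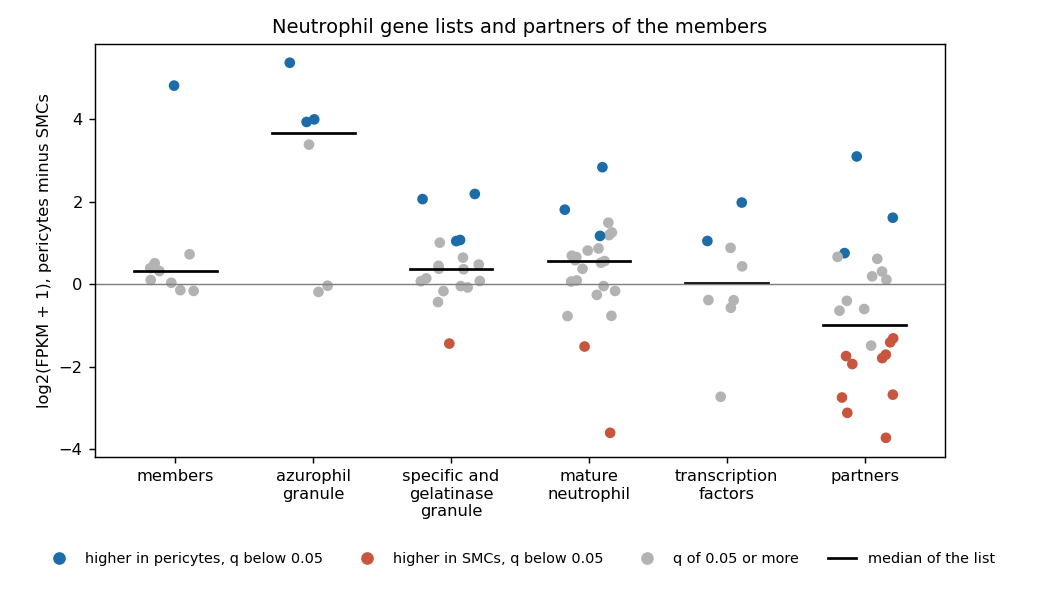
Difference in mean log2(FPKM + 1), pericytes minus SMCs, for each gene of 6 lists, colored blue (higher in pericytes) or red (higher in SMCs) where q was below 0.05 by limma, with a black line at the list's median. Medians are 0.32 for the 9 genes (members), 3.66 for the azurophil list and -0.98 for the list of receptors, ligands, inhibitors and neutrophil chemokines (partners).

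Receptors, ligands, signaling molecules and inhibitors tied to these 9 proteins were measured in the same libraries together with chemokines that act on neutrophils. Of 22 such genes, 3 were higher in pericytes, 10 were higher in SMCs and 9 did not pass, with a median log2 difference of -0.98, beside 10.6% and 11.2% of all genes tested in these directions. Most markers of fibroblasts and endothelial cells were also higher in SMCs, and their part in these values was not tested. Of 5 fibroblast markers 4 were higher in SMCs and 1, Dcn, in pericytes, with summed levels of 702 to 1481 FPKM in pericytes and 2675 to 3172 FPKM in SMCs. Dcn measured 1165, 1115, 509 and 571 FPKM in pericyte replicates 1 to 4 and made up most of the pericyte sum. Dcn was at 0 in all SMC libraries, where Lum, another of the 5, was 1131 to 1971 FPKM. Whether these values of 0 reflect the cells or the processing was not tested. Of 4 endothelial markers 3 were higher in SMCs and 0 in pericytes, with summed levels of 31.5 to 77.2 FPKM in pericytes and 145 to 486 FPKM in SMCs. Of these, Cdh5 lost its call without pericyte replicate 1 or 3 or SMC replicate 3 and with all listed genes tested (q up to 0.0588). Csf3, the ligand G-CSF, was 1.68, 1.32, 2.52 and 5.56 FPKM in pericyte replicates 1 to 4 and 27.7, 23.1, 77.0 and 80.4 FPKM in SMC replicates 1 to 4 (-3.73, q = 0.00232 by limma). Its receptor gene Csf3r averaged 3.96 FPKM in pericytes against 1.83 in SMCs and did not pass. Of the molecules through which CSF3R signals, Jak2 (0.76, q = 0.00155) and Lyn (1.61, q = 2.96e-04) were higher in pericytes. Pan-leukocyte markers (4 of 4) and B cell markers (4 of 4) were also higher in pericytes, and their part in these 2 values was not tested. Stat3 (0.19, q = 0.827) and the feedback inhibitor Socs3 (-1.49, q = 0.126) did not pass. Socs3 passed in SMCs under 3 of the 17 alternatives, 1 of them with only genes at 1 FPKM or more in 4 libraries, with q from 0.00109 to 0.269 over all of them. Jak2 lost its call under TPM scaling (q = 0.0760).

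Tlr4, a receptor of S100A8/S100A9, was 1.90 ± 0.483 FPKM in pericytes and 6.65 ± 0.775 FPKM in SMCs (SD, n = 4 each; -1.41, q = 3.5e-04 by limma), and Ager, a further receptor, did not pass (q = 0.174). Slc22a17, a receptor of lipocalin-2, was lower in pericytes by limma (-1.31, q = 0.0415), and the call was lost without pericyte replicate 1, 2 or 4 or SMC replicate 1, 2 or 3 (q up to 0.104). Lrp1, which takes up lactoferrin, was 7.48 against 29.7 FPKM (-1.79, q = 0.0111). Among elastase inhibitors, Slpi was higher in pericytes, at 51.6, 146, 90.4 and 214 FPKM in replicates 1 to 4 against 14.7, 19.6, 16.6 and 3.94 FPKM in SMCs (3.10, q = 0.00880). Serpina3n (2.91 against 31.5 FPKM, -3.12, q = 3.8e-04) and Serpina1b (1.74 against 7.63 FPKM, -1.74, q = 0.00668) were higher in SMCs. The value of Serpina1b is uncertain, because near-identical copies of that gene can share reads. Serpinb1a, which inhibits elastase inside neutrophils, averaged 86.8 against 49.7 FPKM and did not pass (0.66, q = 0.232).

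Of 6 chemokines that act on neutrophils, 4 were higher in SMCs and 0 in pericytes, beside 11.2% and 10.6% of all genes tested. Cxcl1 was 991 ± 174 FPKM in SMCs and 152 ± 51.7 FPKM in pericytes (SD, n = 4 each; -2.75, q = 4.8e-04 by limma). Cxcl12, which holds neutrophils in the marrow, was 238 against 38.6 FPKM (-2.68, q = 0.00119). Cxcl2 was 68.8 against 17.8 FPKM (-1.94, q = 0.0118). Cxcl5 was 4.65 against 0.952 FPKM (-1.71, q = 0.0218) and lost its call without SMC replicate 3 or 4 (q up to 0.0599). Cxcl3 (q = 0.0693) and Ppbp (q = 0.550) did not pass, though Cxcl3 passed in SMCs under 5 of the 17 alternatives (q from 0.0134 to 0.158).

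Markers of other blood cells also differed between the gates, and their part in the difference of Elane was not tested. All 4 pan-leukocyte markers were higher in pericytes, with a summed level of 2308 to 2754 FPKM against 118 to 178 FPKM in SMCs. Of 6 T cell markers 5 (all but Cd4), and of 4 B cell markers 4, were higher in pericytes. The 8 eosinophil and basophil markers summed to 727, 1499, 212 and 151 FPKM in pericyte replicates 1 to 4 and 71.1, 177, 7.88 and 3.04 FPKM in SMC replicates 1 to 4. Prg2 alone was 449, 1395, 190 and 119 FPKM in pericytes and 40.4, 125, 3.26 and 2.56 FPKM in SMCs, in the same order. Prg2 did not pass (4.37, q = 0.0593 by limma), but passed under some alternatives, among them without SMC replicate 2 (q from 0.00258 to 0.139 over all of them). Of these 8, 1 was higher in pericytes (Epx, eosinophil peroxidase, 3.61, q = 0.00348 by limma), 2 were under 1 FPKM in every pericyte library and 3 in every SMC library, and 0 were at 0 throughout a group. Their sum, like Elane, was highest in replicate 2 of the pericytes and lowest in SMC replicates 3 and 4. The 5 mast cell markers summed to 42.4 to 67.8 FPKM in pericytes and 3.20 to 18.8 FPKM in SMCs, with 2 higher in pericytes, Tpsb2 (q = 0.0281) and Cpa3 (q = 0.0480), calls that did not hold with each library left out. The 9 monocyte and macrophage markers summed to 815 to 2162 FPKM in pericytes and 359 to 511 FPKM in SMCs, with 2 higher in pericytes (Ly6c2 and Ccr2) and 4 in SMCs (Mrc1, C1qa, Cd163 and Adgre1). Without Ly6c2 the other 8 summed to 172 to 313 FPKM in pericytes and 317 to 498 FPKM in SMCs. Adgre1 (q = 0.0437) lost its call without any single library except pericyte replicate 4, with a pseudocount of 0.1 and with all listed genes tested (q up to 0.108). The 7 erythroid markers summed to 1034, 3623, 992 and 125 FPKM in pericytes and 503, 818, 200 and 128 FPKM in SMCs, and 0 of them passed in either direction by limma (0 also at an unadjusted p under 0.05). Of 5 platelet markers 0 were higher in pericytes and 2 in SMCs, Pf4 (-2.53, q = 0.0296 by limma) and Itga2b (-2.26, q = 0.00101). Their summed level was 4.87 to 37.2 FPKM in pericytes and 47.5 to 130 FPKM in SMCs. Pf4 lost its call without pericyte replicate 1, 3 or 4 or SMC replicate 1 or 2 and with all listed genes tested (q up to 0.0778). Of 7 bone and marrow markers, 3 were higher in pericytes (Top2a, Mki67 and Acp5) and 4 in SMCs (Bglap, Ctsk, Cd34 and Ibsp), with the call of Ibsp lost without any single library except SMC replicate 2 (q up to 0.117). Their summed level was 180 to 290 FPKM in pericytes and 696 to 1425 FPKM in SMCs. The proliferation genes Top2a (21.97 against 2.83 FPKM, q = 6.4e-04 by limma) and Mki67 (1.95 against 0.299 FPKM, q = 0.0114 by limma) had separate groups, like Elane, and Cd34, a marker of progenitor and endothelial cells, was 64.3 against 477 FPKM (q = 0.00202 by limma).

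The genes whose pattern over the 8 libraries was most like the mean of the 9, with group means subtracted, were sought among 13612 genes averaging 1 FPKM or more. Itgb2l, an integrin chain found in neutrophils, came first (r = 0.996), at 0.852, 4.67, 4.82 and 0.748 FPKM in pericyte replicates 1 to 4 and 3.70, 4.45, 2.09 and 0.104 FPKM in SMC replicates 1 to 4. Wfdc21 (listed as 1100001G20Rik, r = 0.989) and Chil3 (listed as Chi3l3, r = 0.9754) followed. These 3 were also on the lists of other neutrophil genes. The next 7 were A530064D06Rik (r = 0.967), Fmnl2 (0.967), Dnajb13 (0.961), Ifitm6 (0.954), Tram1 (0.946), Rhebl1 (0.944) and Rtf1 (0.944). For Elane alone, a search chosen after the values were seen, the 10 most alike were Tubb2a (r = 0.993), Ryk (0.990), AC124472.1 (0.988), Ctsg (0.988), Slamf1 (0.987), Prtn3 (0.986), Zranb1 (0.985), BC024659 (0.985), Ms4a3 (0.984) and Golt1b (0.984). Of these, 3 are on the azurophil list (Ctsg, Prtn3 and Ms4a3). These values of r rest on 8 libraries and a search of every gene at that level, and are a description with no test.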

How the data were processed

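Total RNA from sorted cells was amplified with the SMART-Seq v4 kit, and libraries were made with Nextera XT and sequenced as read pairs. The authors checked reads with FastQC, aligned them with Bowtie2 and TopHat to NCBI Build 37 with an Ensembl annotation, and deposited FPKM per gene and library. The program that computed FPKM and the use of strand are not given in the sources used here. The table holds 37979 genes, of which 10565 were at 0 in all 8 libraries and 27414 were tested. Gene positions came from GENCODE for the same build, which holds 37195 of the identifiers.

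FPKM were taken as log2(FPKM + 1), a scale that understates changes of low genes, and fitted in R 4.3.3 with lmFit and eBayes of limma 3.58.1 over all 8 libraries with no covariate. P values were adjusted by Benjamini-Hochberg over all genes tested, and a call was q under 0.05. FPKM are not counts, so no count test was run. Depth was estimated from values under 0.2 FPKM of single-transcript genes over 1000 bases, of which 98.0% to 98.6% lay within 0.1 of a whole number of fragments. Promoters were cut to 250 bases before the start, and motifs were searched in Python 3.11.15.

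The 9 genes, the gene lists, the naming rule and the alternatives were chosen with earlier results of these data known, and the lists are no independent evidence. A gene of the mature neutrophil list is not reported here and is left out of its counts. Named were the 9 genes, up to 5 genes passing in each direction of each neutrophil list by size of change, partners averaging 1 FPKM or more over all libraries, and the 10 genes most alike in pattern. Ager and Cxcl3, partners under that level, were named as well. Mmp8, Mmp9, Chil3, Cxcr2, Ly6g, Cebpe, Cebpd, Cebpa, Ms4a3, Prss57, Bpi and Prg2 were named besides, after their values were seen. The alternatives used 0.1 as pseudocount, only genes at 1 FPKM or more in 4 libraries, all listed genes, quantile, TPM and median-ratio scaling, a replicate block, replicates 1 and 2 against 3 and 4 as a covariate, an intensity trend, and each library left out in turn.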

Additional observations from a re-analysis of the deposited data

Results flagged for a closer look

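In groups of 4 libraries, the highest or lowest value was called far from the others when its gap to the nearest, over the group's range, exceeded Dixon's 95% critical value. Of 88 groups looked at (44 genes), 7 met this, where chance gives about 1 in 20. Among the genes described first, these were Ltf in SMC replicate 4 (7.10 FPKM, the others 74.0 to 115) and Retnlg in SMC replicate 4 (12.5 FPKM, the others 76.1 to 103). SMC replicate 4 was high for Mmp25 (0.461 FPKM, the others 0.177 to 0.181). Pericyte replicate 2 was high for Gfi1 (2.31 FPKM, the others 0.773 to 0.82896). SMC replicate 2 was low for Cyba (312 FPKM, the others 384 to 400.0) and the only SMC library above 0 for Gfi1 (0.0448 FPKM). With the other SMC libraries at 0, any value above 0 would have met the rule for Gfi1. The rate of 1 in 20 does not hold for such a group. SMC replicate 3 was low for Serpinb1a (41.9 FPKM, the others 51.6 to 53.2).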

How the results depend on the processing

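Counts over all genes stayed within 1.5 times of those reported under all 17 alternatives, and the count of the 9 genes higher in SMCs was 0 under each. The count of the 9 genes higher in pericytes fell from 1 to 0 with all listed genes tested, rose to 2 with the replicate block and to 2 with replicates 1 and 2 against 3 and 4 as a covariate, and was 0 to 1 with each library left out. The count past a log2 fold change of 2 was 0 with all listed genes tested and 0 to 1 with each library left out. The second gene under the replicate block and the covariate was Csf3r, with an unchanged difference of 0.73 and q of 0.0342 and 0.0452 by limma, against 0.103 to 0.481 under the other alternatives.

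Same-numbered pericyte and SMC libraries are not stated to share animals, and the correlation of their deviations was 0.0794, 0.319, 0.437 and 0.474 for pairs 1 to 4 across 13612 genes, with 2 of 4 pericyte libraries correlating best with their own number. The numbers were therefore not taken as pairs. Under the replicate block, q was 0.0165 for Elane, and the other neutrophil genes gave 16 calls for pericytes and 2 for SMCs. Cebpe (q = 0.0422), Ms4a3 (q = 0.0160), Socs3 (q = 0.00582) and Cxcl3 (q = 0.0134) then passed, as did 6 of the 7 pericyte markers, all higher in SMCs, while Cyba (q = 0.0511), G0s2 (q = 0.0507), Mki67 (q = 0.0507) and Ibsp (q = 0.113) lost their calls.

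The count of other neutrophil genes higher in SMCs, 3 as reported, was 5 under quantile scaling, 7 under TPM scaling and 1 to 7 with each library left out. TPM scaling moved the median of all genes by -0.11. Signs turned for genes that did not pass. Camp was -0.14 under TPM, and Ngp was -0.16 under quantile, -0.20 under TPM and -0.0091 under median-ratio scaling. With each library left out the ranges were -0.41 to 0.94 for S100a8, -0.43 to 0.82 for S100a9, -1.05 to 0.23 for Ltf, -0.78 to 0.28 for Lcn2, -0.61 to 0.85 for Camp, -0.82 to 0.63 for Ngp and -0.17 to 1.24 for Retnlg. The cause was not tested. The Elane to S100a8 difference was 4.72 with no pseudocount and 3.78 to 5.004 with each library left out, alternatives chosen after seeing the data. At the depth of these libraries the counting error of Elane was at most 17.7%.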
